A study of Mus musculus with 2 samples.

Results

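Glucose and lactate transporters of the mouse testis are described here by 8 genes, taken from the deposited count matrices by their symbols: Slc2a1, Slc2a3, Slc2a5 and Slc2a8 of the facilitative sugar transporter family, Slc16a1, Slc16a3 and Slc16a7 of the monocarboxylate transporter family, and Bsg, the partner protein of lactate carriers. They are 8 of the 39232 genes listed over both libraries, and each of the 8 was detected in both. They were chosen by symbol and not by a threshold on a measured value.

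Inside the seminiferous tubule, Sertoli cells take up glucose, break it down and release lactate, and the germ cells beyond the blood-testis barrier take the lactate up as fuel. Uptake and release run through membrane carriers: glucose transporters (GLUT) of the Slc2a family let sugars cross down their gradient, and monocarboxylate transporters (MCT) of the Slc16a family move lactate, pyruvate and ketone bodies together with a proton. Several MCTs reach the plasma membrane only in a complex with basigin, the product of Bsg, and male mice without Bsg are infertile.

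The data are single-cell RNA sequencing of testis tissue from C57 BL/6 male mice, made with a DNBelab C droplet kit. There were 2 libraries: the high-fat library, and a second library whose label names the tissue but no diet. The study began with 20 mice that were 5 weeks old, which after 1 week of adaptation were fed for 12 weeks a high-fat diet (60% of energy from fat, 10 mice) or a normal diet (10 mice). How many mice went into each library is not in the labels. Since each group is 1 library, no test was possible, and every difference below is one between these 2 libraries, not between the diets.

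Levels are counts of unique molecular identifiers (UMIs) summed over the cells of a class and given as counts per 1000000 UMIs of that class (CPM). The intervals in square brackets are exact 95% intervals and cover counting error only. The high-fat library had 12661 barcodes with a median of 9772 UMIs, of which 12196 cells were kept, and the library with no diet named had 13805 barcodes with a median of 13024 UMIs, of which 13286 were kept. In all 1507 barcode names occurred in both libraries, but the names are running cell labels and not sequences. Clusters were named from marker genes, and each name means a cell that resembles that type: spermatogonia (881 and 723 cells in the high-fat library and the library with no diet named), early spermatocytes (417 and 225), late spermatocytes (2721 and 3244), round spermatids (2593 and 3627), Cst13-rich spermatids with round and elongating markers alike (610 and 1067), elongating spermatids (223 and 152), Sertoli cells (1251 and 787), Leydig cells (76 and 27), interstitial stroma (230 and 184), peritubular myoid cells (25 and 37), endothelial cells (38 and 91) and lymphoid cells (200 and 60). Although both libraries are labelled as germ cells, they held somatic cells as well. The other 24.0% and 23.0% of cells lay in 6 clusters left without a name.

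2 measurements bear on every level in somatic cells and are given first. Germ cell transcripts were found in all somatic classes: over 32 markers of late spermatocytes and spermatids, the median level in Sertoli cells was 74.4% of the whole-library level in the high-fat library and 51.0% in the library with no diet named. In endothelial cells it was 27.4% and 33.0%, and in spermatogonia 48.9% and 33.2%. A member at about that share of its whole-library level cannot be told apart from free RNA carried into the droplet. Second, the somatic clusters held a few deep cells of 8000 or more UMIs. In the Sertoli cluster these were 34 cells with 20.1% of the class's UMIs in the high-fat library and 56 cells with 44.5% in the library with no diet named. The summed level of the Sertoli markers in these deep cells was 9983 CPM in the high-fat library and 799 CPM in the library with no diet named, where late spermatocyte markers reached 2933 CPM, near the 3087 CPM of late spermatocytes. Sertoli cells under 8000 UMIs had 8752 and 8386 CPM of Sertoli markers, so Sertoli values are given for all cells and for cells under 8000 UMIs. Of the 14 Sertoli markers, 13 were at least 2-fold above the whole-library level in both libraries and Amh was at 0 in both. Margins were smaller in the large germ cell classes. In late spermatocytes 9 of 10 markers were above the whole-library level in both libraries, but only 2 by 2-fold. In round spermatids all 12 were above it, 8 by 2-fold in the high-fat library and 1 in the library with no diet named.

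The promoters of 3 members are shown because their transcripts followed different courses through germ cell development: Slc2a8 and Slc2a5 were both highest in the same late spermatocyte cluster, whereas Slc16a1 was near its lowest there. The sequences are the 250 bases before the start of the gene in RefSeq (build GRCm38.p6), 5′ to 3′ on the gene's strand. Capitals mark CCAAT on either strand. They lie at chr2:32982084-32982333 (minus strand, Slc2a8), chr4:150119094-150119343 (plus strand, Slc2a5) and chr3:104638414-104638663 (plus strand, Slc16a1).
Slc2a8: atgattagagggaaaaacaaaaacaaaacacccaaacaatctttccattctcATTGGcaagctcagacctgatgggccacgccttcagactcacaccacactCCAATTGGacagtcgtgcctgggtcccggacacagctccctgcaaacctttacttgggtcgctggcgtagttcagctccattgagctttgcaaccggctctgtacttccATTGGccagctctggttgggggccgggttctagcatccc
Slc2a5: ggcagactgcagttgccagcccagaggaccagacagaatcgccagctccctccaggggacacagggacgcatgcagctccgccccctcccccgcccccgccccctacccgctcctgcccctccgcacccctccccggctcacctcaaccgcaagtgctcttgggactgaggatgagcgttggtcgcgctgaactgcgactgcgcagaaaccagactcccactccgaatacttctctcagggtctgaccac
Slc16a1: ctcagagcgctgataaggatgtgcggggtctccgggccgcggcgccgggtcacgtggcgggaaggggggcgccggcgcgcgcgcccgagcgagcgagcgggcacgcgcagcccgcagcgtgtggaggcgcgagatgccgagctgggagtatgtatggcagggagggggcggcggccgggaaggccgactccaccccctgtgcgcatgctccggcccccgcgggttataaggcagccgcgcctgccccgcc
The Slc2a8 promoter held CCAAT 4 times, with 1 pair overlapping on opposite strands. Of 32851 RefSeq promoters of that length, 33.8% held CCAAT at least once and 0.840% held it as often. The Slc2a5 promoter held no CCAAT but held GGGCGG 3 times, a number reached by 8.47% of promoters. The Slc16a1 promoter held GGGCGG once, as 32.7% did, and no CCAAT. Also searched on both strands were AACNG, which is the core of MYB sites, TGACG, which is the core of cyclic AMP response elements, and the TATA box TATAAA. The first of these was found 3 times in the Slc2a5 promoter, a number reached by 19.3% of promoters, and once in that of Slc2a8, as in 74.2%. TGACG, held by 17.8% of promoters, was in none of these 3, and neither was the TATA box, held by 12.4%. A promoter was on hand for 5 of the 8 members and not for Slc2a3, Slc16a7 and Bsg. These matches describe the letters in the window.

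Among the glucose importers, Slc2a1 was an endothelial transcript in this tissue. Slc2a1 encodes GLUT1, the carrier that takes glucose across the vessel wall at blood-tissue barriers and that Sertoli cells also use. In endothelial cells its level was 122 CPM [83.0 to 173] in the high-fat library and 181 CPM [148 to 220] in the library with no diet named. Over all kept cells it was 0.589 and 0.889 CPM. Endothelial cells with at least 1 Slc2a1 UMI made up 55.3% and 49.5% of the class, and 13.2% and 14.3% after every cell was thinned to 1000 UMIs, at median depths of 5920.5 and 3858 UMIs before thinning. In round spermatids, at median depths of 19908 and 14886 UMIs, the share before thinning was 0.154% and 0.193%. The endothelial level was well above the next class in both libraries, which was lymphoid cells at 13.2 CPM in the high-fat library (7 counts) and spermatogonia at 8.48 CPM in the library with no diet named (23 counts). Without the deep cells the endothelial level was 142 CPM (18 counts) and 259 CPM (62 counts).

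In germ cells Slc2a1 was highest in spermatogonia and early spermatocytes. Spermatogonia had 9.17 CPM in the high-fat library and 8.48 CPM in the library with no diet named, and early spermatocytes had 8.34 and 5.59 CPM. Late spermatocytes had 0.106 and 0.198 CPM and round spermatids 0.0645 and 0.109 CPM. No count was seen in elongating spermatids, where 3 counts would be 1.79 CPM in the high-fat library and 3.67 CPM in the library with no diet named. In Sertoli cells it was sparse, with 4.31 CPM (12 counts) in the high-fat library and 2.36 CPM (5 counts) in the library with no diet named. The Sertoli level exceeded that of all named germ cells by 12.4-fold [6.03 to 23.4] and 6.92-fold [2.16 to 17.2], and without the deep cells by 7.74-fold [2.72 to 17.9] and 12.5-fold [3.89 to 30.9]. At 265% to 732% of the whole-library level it was above the share that germ cell transcripts had in these cells. Spermatogonia, early spermatocytes, Sertoli cells and stroma did not differ beyond counting error as neighbours in the order of Slc2a1 levels. Classes further apart in that order, such as spermatogonia and Sertoli cells, were not compared.

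Slc2a3 was a transcript of late spermatocytes. It encodes GLUT3, a high-affinity glucose transporter best known from neurons and also found in sperm. Late spermatocytes had 802 CPM [796 to 809] in the high-fat library and 782 CPM [776 to 789] in the library with no diet named, above all other named classes in both. Along 13 germ cell clusters set in order from spermatogonia to elongating spermatids, with 1 unnamed Ssxb1-rich cluster between late spermatocytes and round spermatids, Slc2a3 stepped up between early spermatocytes (263 and 278 CPM) and the first late spermatocyte cluster (1076 and 1054 CPM). From there it was lower cluster by cluster as far as the round spermatids, except for a second maximum of 999 and 873 CPM in the third late spermatocyte cluster. Its lowest level in germ cells was 116 CPM in a round spermatid cluster of each library. The highest cluster exceeded the lowest by 9.26-fold [8.82 to 9.72] in the high-fat library and 9.05-fold [8.68 to 9.44] in the library with no diet named. Thinned to 1000 UMIs, 53.0% and 53.6% of late spermatocytes showed a Slc2a3 UMI, against 13.7% and 12.4% of round spermatids.

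In Sertoli cells Slc2a3 stood at a share of its whole-library level like that of germ cell markers. Sertoli cells had 320 CPM in the high-fat library and 477 CPM in the library with no diet named, and Sertoli cells under 8000 UMIs 287 and 405 CPM, or 65.1% and 99.5% of the whole-library level. Late spermatocyte markers in the same cells stood at a median of 64.4% (range 33.3% to 118%) and 73.6% (range 36.1% to 159%). Slc2a3 lay within that range in both libraries.

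**Figure D1:**
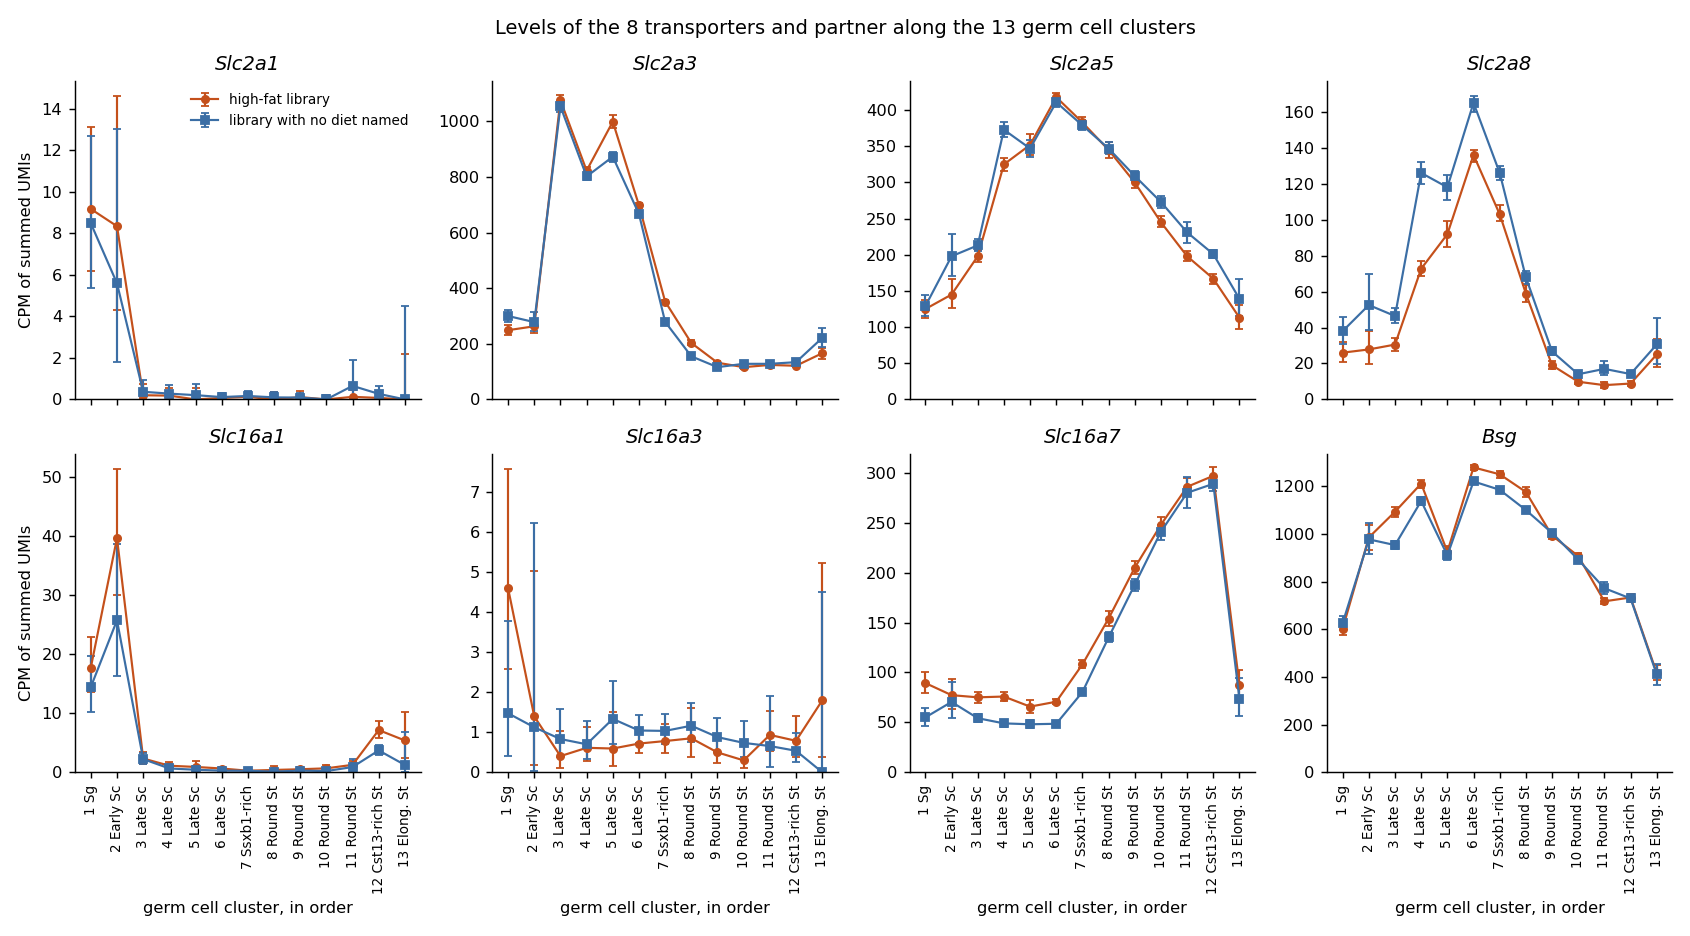
Level of each of the 8 genes (CPM of summed UMIs, vertical axes starting at 0 and differing between panels) in 13 germ cell clusters ordered from spermatogonia to elongating spermatids, in the high-fat library (circles) and the library with no diet named (squares). Sg, spermatogonia; Sc, spermatocytes; St, spermatids; bars are exact 95% intervals for counting error. Slc2a3 peaked at 1076 and 1054 CPM in the third cluster, Slc2a5, Slc2a8 and Bsg in the sixth, and Slc16a7 at 297 and 289 CPM in the twelfth.

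The fructose transporter and the intracellular transporter reached their maximum later than Slc2a3. Slc2a5 encodes GLUT5, which carries fructose, and Slc2a8 encodes GLUT8, which sits mostly on internal membranes and has been located to the acrosome region of sperm. Slc2a5 was highest in the fourth late spermatocyte cluster, at 418 CPM in the high-fat library and 411 CPM in the library with no diet named. It was lower cluster by cluster from there to elongating spermatids, which had 113 and 139 CPM. Spermatogonia had 125 and 129 CPM, so the span from the lowest to the highest cluster was 3.69-fold [3.20 to 4.28] and 3.17-fold [2.86 to 3.54]. In spermatogonia late spermatocyte markers stood at a median of 49.8% and 55.3% of their whole-library levels, and in elongating spermatids at 31.0% and 40.4%. The part of free RNA in the Slc2a5 levels of these clusters was not tested. Round spermatids kept 266 CPM [262 to 270] and 306 CPM [302 to 311].

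Slc2a8 peaked in the same cluster and dropped off more steeply. The peak was 136 CPM in the high-fat library and 165 CPM in the library with no diet named, and the lowest cluster, among round spermatids, had 7.93 and 14.0 CPM. The span was 17.1-fold [14.3 to 20.5] and 11.8-fold [10.3 to 13.5]. Elongating spermatids, which are shallow cells with median depths of 4106 and 3312 UMIs, had 25.0 and 30.6 CPM. Late spermatocyte markers stood there at a median of 31.0% and 40.4% of their whole-library levels, and the part of free RNA in the level was not tested. In Sertoli cells under 8000 UMIs, Slc2a5 was at 53.7% and 54.1% of its whole-library level and Slc2a8 at 42.2% and 65.1%, no higher than the germ cell markers in those cells.

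Among the lactate carriers, Slc16a1 was highest in early spermatocytes, with spermatogonia and Sertoli cells next. It encodes MCT1, which moves lactate, pyruvate and ketone bodies in either direction. Early spermatocytes had 39.6 CPM in the high-fat library and 25.7 CPM in the library with no diet named, the highest class in both, and spermatogonia had 17.7 and 14.4 CPM. Sertoli cells and spermatogonia did not differ beyond counting error in either library. In late spermatocytes it was down to 0.970 and 0.650 CPM and in round spermatids to 0.709 and 0.233 CPM. In Cst13-rich spermatids it was higher again, at 7.12 CPM [5.79 to 8.66] and 3.68 CPM [2.87 to 4.66]. Elongating spermatids, the last of the course, had 5.36 CPM (9 counts) and 1.22 CPM (1 count). These rest on few counts: 57 and 23 in early spermatocytes, 44 and 15 in round spermatids and 100 and 69 in Cst13-rich spermatids.

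Slc16a1 was also the lactate carrier that stood out in Sertoli cells against germ cells. Its Sertoli level was 20.1 CPM [15.2 to 26.1] in the high-fat library and 8.49 CPM [5.03 to 13.4] in the library with no diet named. Under 8000 UMIs it was 13.9 CPM (31 counts) and 14.5 CPM (17 counts), nearly the same in both. That was 600% and 1118% of the whole-library level, far above the share of germ cell transcripts. The ratio to all named germ cells was 6.45-fold [4.31 to 9.33] and 11.9-fold [6.77 to 19.5] without the deep cells, and 9.31-fold [6.89 to 12.4] and 6.97-fold [4.04 to 11.3] with them.

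Slc16a3 was sparse in every class. It encodes MCT4, the carrier by which strongly glycolytic cells release lactate. Over all kept cells 158 counts were seen in the high-fat library and 189 in the library with no diet named, or 0.824 and 0.965 CPM. Sertoli cells had 6 and 5 counts (2.16 and 2.36 CPM), and spermatogonia 15 and 4 (4.59 and 1.47 CPM). No class differed from its neighbour in the order of levels beyond counting error in either library, so no class can be called its main site at this depth. Classes further apart can still differ. In the high-fat library spermatogonia exceeded the lowest germ cell cluster, among round spermatids, by 15.6-fold [5.39 to 54.9]. In the library with no diet named the lowest cluster had 0 counts, and the lower limit of that ratio was 0.199. The Sertoli level was 2.91-fold [1.05 to 6.52] and 2.61-fold [0.836 to 6.24] that of germ cells, and 2.43-fold [0.650 to 6.38] and 1.88-fold [0.226 to 6.93] without the deep cells.

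Slc16a7 was the spermatid carrier. It encodes MCT2, which has a high affinity for lactate and pyruvate and is found on the sperm tail. Its level was 71.9 CPM [70.0 to 73.8] in late spermatocytes of the high-fat library and 49.4 CPM [47.8 to 51.0] in those of the library with no diet named. Round spermatids had 229 CPM [226 to 233] and 191 CPM [188 to 194], and Cst13-rich spermatids 297 CPM [288 to 306] and 289 CPM [282 to 297]. From the lowest cluster, the third of the late spermatocytes, to the Cst13-rich spermatids the level was higher at every cluster in both libraries, by 4.52-fold in the high-fat library and 6.02-fold in the library with no diet named in all. Elongating spermatids were back at 87.0 and 73.4 CPM, and the part of free RNA in that level was not tested. Slc16a1 thus peaked earlier along the course than Slc16a7, and in the late spermatocytes between these peaks each was low relative to its own peak. In CPM, Slc16a7 was above Slc16a1 in every germ cell class of both libraries. This held in early spermatocytes too, with 77.2 and 70.4 CPM against 39.6 and 25.7 CPM.

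Bsg, the shared partner, was found in every class and was highest along the course in the fourth late spermatocyte cluster. Its level was 602 CPM in spermatogonia of the high-fat library and 626 CPM in those of the library with no diet named, 1208 and 1119 CPM in late spermatocytes, and 416 and 410 CPM in elongating spermatids. The span from the lowest to the highest germ cell cluster was 3.08-fold [2.86 to 3.32] and 2.98-fold [2.67 to 3.33]. Elongating spermatids were the lowest cluster, and the part of free RNA in their Bsg level was not tested. Endothelial cells were the highest class, with 2423 CPM [2236 to 2623] and 1709 CPM [1604 to 1819], and without the deep cells 2733 and 2014 CPM. Thus the endothelial cells were the highest class for both Slc2a1 and Bsg. Bsg is known as a transcript of endothelium with a tight barrier. In Sertoli cells under 8000 UMIs Bsg was at 673 and 672 CPM, or 64.3% and 65.4% of the whole-library level, no higher than germ cell markers there.

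**Figure D2:**
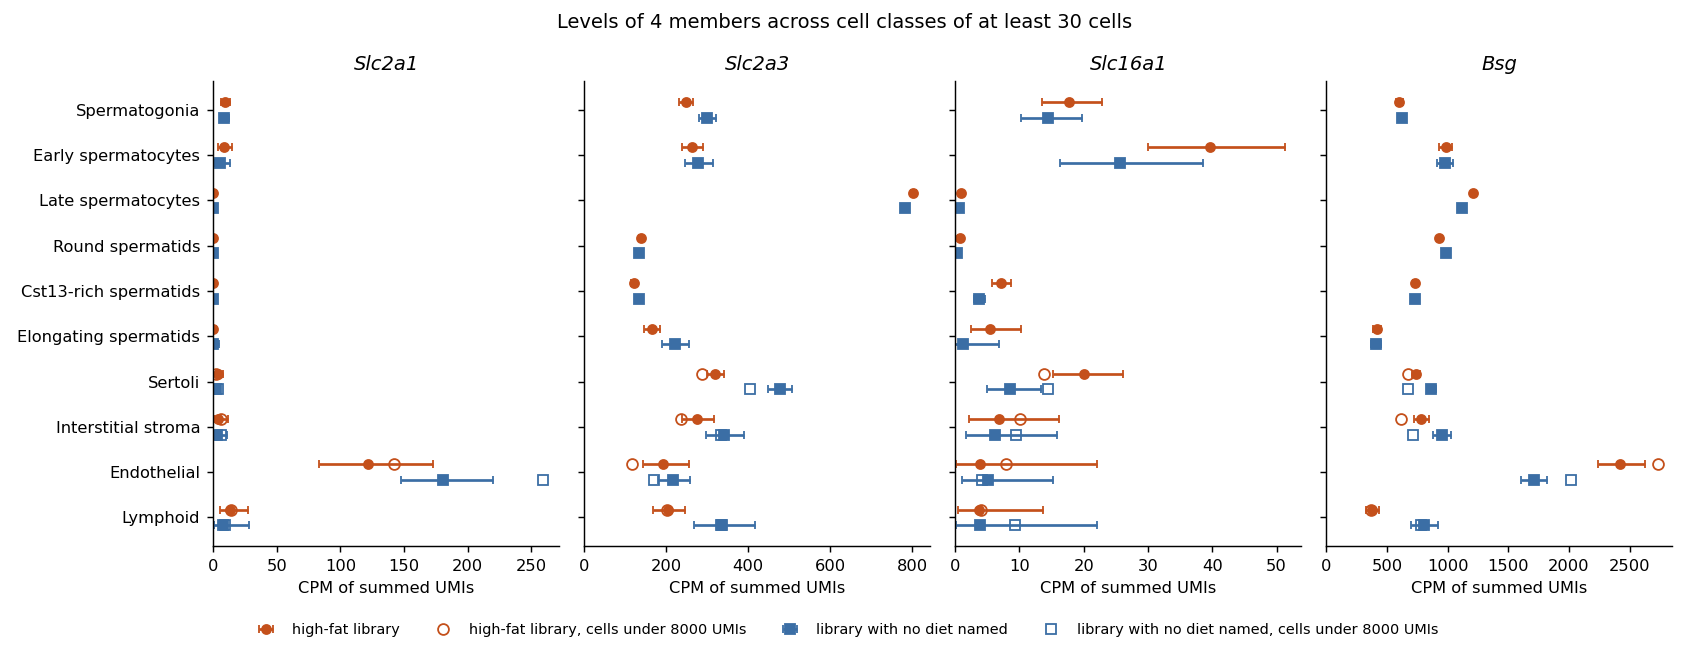
Levels of Slc2a1, Slc2a3, Slc16a1 and Bsg (CPM of summed UMIs, horizontal axes starting at 0) in the 10 cell classes with at least 30 cells in each library, high-fat library in circles above the library with no diet named in squares; bars are exact 95% intervals for counting error and open symbols are the somatic classes without cells of 8000 or more UMIs. Slc2a1 and Bsg were highest in endothelial cells, Slc2a3 in late spermatocytes (802 and 782 CPM) and Slc16a1 in early spermatocytes (39.6 and 25.7 CPM).

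For 7 of the 8 members the class with the highest level was the same in both libraries, and for Slc16a3 it was spermatogonia in the high-fat library and stroma in the library with no diet named. Over all 23796 genes with at least 50 counts the class was the same for 58.1%, so the members' agreement is read against that share. Endothelial cells led for Slc2a1 and Bsg, late spermatocytes for Slc2a3, Slc2a5 and Slc2a8, early spermatocytes for Slc16a1 and Cst13-rich spermatids for Slc16a7. With classes assigned from marker counts per cell, Slc2a3 was highest in early spermatocytes and Slc16a7 in elongating spermatids in both libraries, and Slc16a1 was highest in Sertoli cells of the high-fat library and spermatogonia of the library with no diet named. With separate clustering of the libraries or with called doublets kept no endothelial class formed, and without the deep cells it fell under 30 cells in the high-fat library. In all 3 cases Bsg was highest in late spermatocytes, and Slc2a1 in lymphoid cells except in the library with no diet named with doublets kept, where it was highest in spermatogonia. With separate clustering Slc16a7 was highest in elongating spermatids of the high-fat library and round spermatids of the library with no diet named. With free RNA subtracted Slc16a1 was highest in Sertoli cells of the high-fat library, at 71.8 CPM beside 39.6 CPM in early spermatocytes. Only somatic classes were subtracted and rescaled there, so these levels were not treated alike and do not settle which class was highest. In Sertoli cells, 3 of the 8 members were at least 2-fold above all named germ cells in both libraries (Slc2a1, Slc16a1 and Slc16a3), beside 14.4% of 22755 genes tested, and 2 remained without the deep cells (Slc2a1 and Slc16a1). The other 5 were not, and their Sertoli levels under 8000 UMIs were between 42.2% and 99.5% of the whole-library levels. The share of all genes was not counted without the deep cells. Late spermatocytes and spermatids gave most of the UMIs of the named germ cells. Spermatogonia alone had 9.17 and 8.48 CPM of Slc2a1, beside 4.31 and 2.36 CPM in Sertoli cells.

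**Figure D3:**
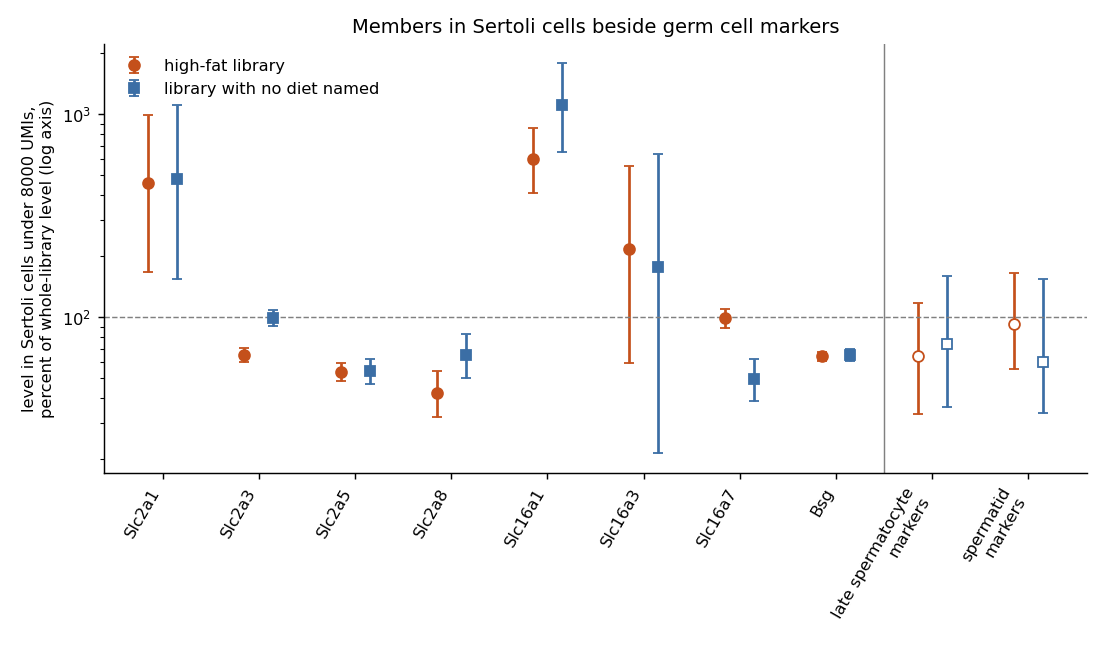
Level in Sertoli cells under 8000 UMIs as a percent of the whole-library level (log axis; dashed line, 100%) for the 8 genes and, right of the line, for 10 late spermatocyte and 22 spermatid markers, high-fat library in circles and library with no diet named in squares. Bars are exact 95% counting intervals for genes and the range over markers for the open symbols; Slc2a1 and Slc16a1 lie between 458% and 1118%, and Slc2a3, Slc2a5, Slc2a8, Slc16a7 and Bsg lie between 42.2% and 99.5%, among the germ cell markers.

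Between the libraries, 3 members passed 2-fold in Sertoli cells among the 6 with at least 50 counts, where 17.6% of 9358 genes did. Slc16a1 had 20.1 CPM in the high-fat library and 8.49 CPM in the library with no diet named (ratio 2.37 [1.37 to 4.28]). Slc16a7 had 131 and 65.6 CPM (ratio 2.00 [1.64 to 2.46]), and Slc2a8 had 33.4 and 91.5 CPM (ratio 0.365 [0.282 to 0.470]). The Slc16a7 ratio lay at the threshold itself, and the log2 ratio of Slc16a1 ranged from -0.21 to 3.06 over the alternatives. The median log2 ratio was -0.37 over the members and 0.10 over all genes tested.

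Without the deep cells the Slc16a1 ratio was near 1, and Slc16a7 and Slc2a8 still passed 2-fold. Among Sertoli cells under 8000 UMIs, 2 of the 5 members with at least 50 counts passed 2-fold, where 11.5% of 8193 genes did. Slc16a7 had 147 CPM [132 to 164] in the high-fat library and 62.9 CPM [49.4 to 79.0] in the library with no diet named (ratio 2.34 [1.81 to 3.05]). Slc2a8 had 27.0 and 54.4 CPM (ratio 0.496 [0.343 to 0.717]) on 60 and 64 counts, at the threshold itself. In all Sertoli cells with called doublets kept, the Slc2a8 log2 ratio was -0.84, under 2-fold. Under 8000 UMIs Slc16a1 had 13.9 and 14.5 CPM (ratio 0.965 [0.518 to 1.86]), and Bsg 673 and 672 CPM (ratio 1.00 [0.918 to 1.09]). Slc2a3 had 287 and 405 CPM (ratio 0.709 [0.629 to 0.800]), below 2-fold. The median log2 ratio was -0.09 over the members and -0.04 over all genes tested.

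Both Slc16a7 and Slc2a8 differed in the same direction as the germ cell markers in those cells. Spermatid markers, whose cells are where Slc16a7 was highest, stood in Sertoli cells under 8000 UMIs at 92.2% of the whole-library level in the high-fat library and 60.5% in the library with no diet named. Late spermatocyte markers, whose cells are where Slc2a8 was highest, stood at 64.4% and 73.6%. The part of free RNA in the Slc16a7 and Slc2a8 differences was not tested.

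In germ cells no member passed 2-fold in spermatogonia, spermatocytes or spermatids as a whole. The count was 0 of 7 with at least 50 counts in spermatogonia, 0 of 7 in spermatocytes and 0 of 7 in spermatids, where 10.5%, 16.8% and 18.5% of all genes did. Over all kept cells it was 0 of 8, where 17.1% of genes did. Among the single germ cell classes, 1 of 7 members passed in round spermatids, which was Slc16a1 at 0.709 CPM (44 counts) in the high-fat library and 0.233 CPM (15 counts) in the library with no diet named, where 20.9% of genes passed. Its log2 ratio of 1.61 was 0.56 with classes from marker counts per cell, 0.58 with clustering not standardised within libraries and 0.97 with called doublets kept, all under 2-fold, and the clusters that make up the class differ in size between the libraries.

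A pair of members differed in one direction along the whole germ cell course, mostly by less than 2-fold. The share of all genes that kept one direction over these clusters was not counted. Slc2a8 was lower in the high-fat library in 13 of 13 germ cell clusters, with log2 ratios from -1.10 to -0.21 and intervals below no difference in 12. It passed 2-fold in 1 of them, a round spermatid cluster with 7.93 CPM (128 counts) in the high-fat library and 17.0 CPM (78 counts) in the library with no diet named. In spermatids it had 18.4 CPM [17.5 to 19.4] in the high-fat library and 31.0 CPM [29.8 to 32.2] in the library with no diet named, a ratio of 0.594 [0.557 to 0.634]. Its log2 value of -0.75 was -1.23 with separate clustering and -0.16 with clustering not standardised within libraries, where that of round spermatids alone was -0.01. The round spermatid class is made up differently in the libraries: the first of its clusters, with the most Slc2a8, held 434 and 1123 cells and the last held 789 and 270. Within the first 3 round spermatid clusters the ratios were 0.867, 0.710 and 0.704. In spermatocytes it had 103 and 131 CPM, a ratio of 0.783 [0.760 to 0.807]. Slc2a8 had 26.0 and 38.0 CPM in spermatogonia and 27.8 and 52.5 CPM in early spermatocytes. Late spermatocyte markers stood at medians of 49.8% and 55.3% of their whole-library levels in spermatogonia, and 46.3% and 62.0% in early spermatocytes. The part of free RNA in the Slc2a8 ratios of these 2 clusters was not tested.

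Slc16a7 was higher in the high-fat library in 13 of 13 clusters, with log2 ratios from 0.03 to 0.70 and intervals above no difference in 8. The ratio was 1.63 [1.33 to 1.99] in spermatogonia (89.3 and 54.9 CPM), 1.45 [1.39 to 1.51] in spermatocytes (72.0 and 49.6 CPM) and 1.13 [1.10 to 1.15] in spermatids (239 and 212 CPM). In spermatogonia the spermatid markers stood at a median of 48.4% of their whole-library levels in the high-fat library and 31.6% in the library with no diet named, beside 60.0% and 43.2% for Slc16a7, and the part of free RNA in that ratio was not tested. Slc16a1 had 1.70 and 0.964 CPM in spermatocytes (ratio 1.76 [1.30 to 2.39]) and 1.97 and 1.01 CPM in spermatids (ratio 1.95 [1.48 to 2.57]), with 130 and 69 and with 153 and 85 counts. The remaining members differed less: Slc2a3 was higher in 7 and lower in 6 of the 13 clusters (log2 ratios from -0.42 to 0.39), Slc2a5 had log2 ratios from -0.45 to 0.03 and Bsg from -0.11 to 0.20. The clusters of 1 library share its preparation and are not replicates of a condition.

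**Figure D4:**
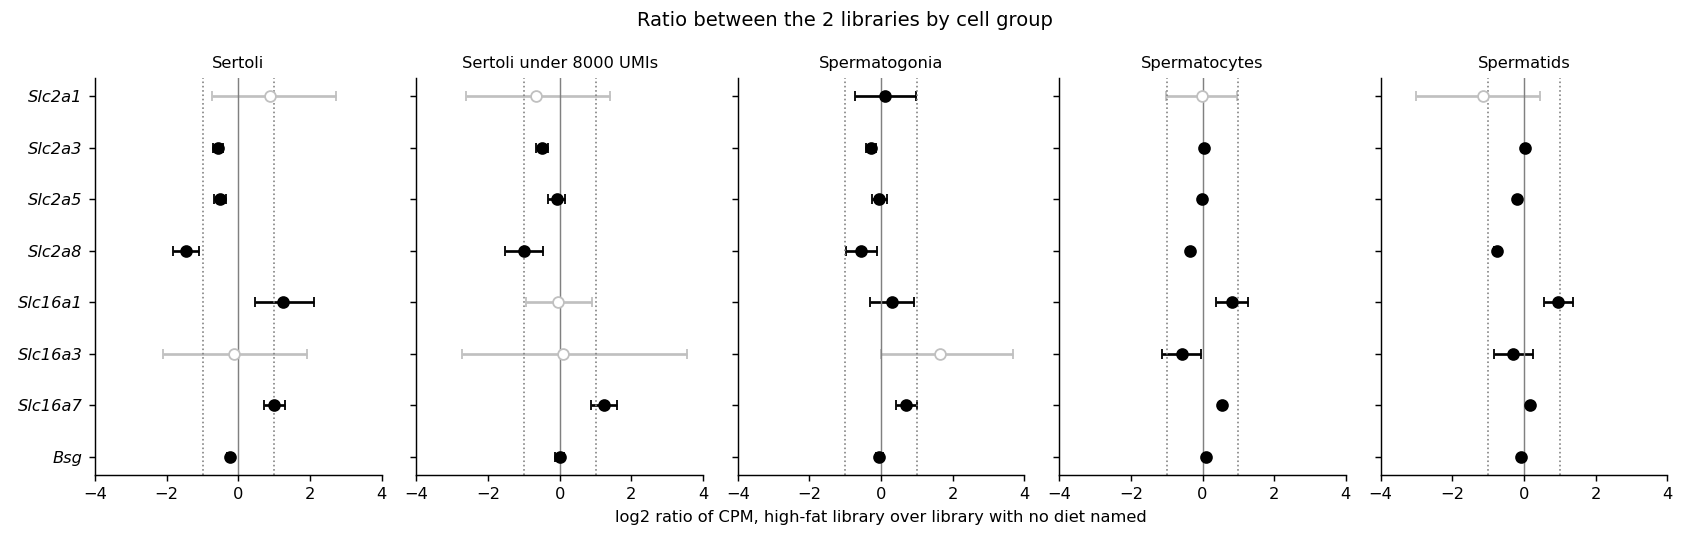
Log2 ratio of CPM, high-fat library over library with no diet named, for the 8 genes in 5 cell groups; bars are exact 95% intervals for counting error, dotted lines mark 2-fold, and open grey symbols have fewer than 50 counts. Slc2a8 lies below 0 and Slc16a7 above 0 in all 5 groups, and Slc16a1 lies at 1.24 in all Sertoli cells but at -0.05 in Sertoli cells under 8000 UMIs.

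In the other somatic classes few members had enough counts. Endothelial Slc2a1 was 122 CPM in the high-fat library and 181 CPM in the library with no diet named (ratio 0.673 [0.436 to 1.01]), and endothelial Bsg 2423 and 1709 CPM (ratio 1.42 [1.28 to 1.57]), both under 2-fold, as were all 4 members with enough counts, where 9.82% of genes passed. Without the deep cells endothelial Slc2a1 had a ratio of 0.547 [0.305 to 0.937] on 18 and 62 counts. With classes from marker counts per cell its log2 ratio was -1.61, past 2-fold. In lymphoid cells Bsg had 381 and 807 CPM (ratio 0.472 [0.387 to 0.577]) and Slc2a5 had 128 and 301 CPM (ratio 0.427 [0.303 to 0.600]), 2 of 4 members where 28.4% of genes passed 2-fold. There the germ cell markers stood at 47.4% and 67.7% of the whole-library level. Without the deep cells Bsg still passed at 370 and 778 CPM and Slc2a5 did not, at 128 and 232 CPM, which makes 1 of 3 members where 15.6% of genes passed. With classes from marker counts per cell neither passed, at log2 ratios of -0.05 for Bsg and -0.02 for Slc2a5, and with called doublets kept Bsg was at -0.42. In peritubular myoid cells Slc2a3 had 133 CPM (9 counts) and 361 CPM (51 counts), 1 of 2 members where 22.9% of genes passed, and under 8000 UMIs 133 and 220 CPM (9 and 17 counts), with the germ cell markers at 44.6% and 41.0% of the whole-library level. With classes from marker counts per cell its log2 ratio was -0.03.

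Genes whose levels ran most like each member's over the 10 classes with at least 30 cells were found among 11612 genes by the mean over both libraries of Pearson's r of log2 CPM. For Slc2a3 they were Zfp956 (0.977), Piwil1 (0.977), a piRNA-binding protein of meiotic cells, and Gm50240 (0.971). For Slc2a5 they were Spink2 (0.982), an inhibitor of acrosomal proteases, Sccpdh (0.980) and Syngr4 (0.980), and for Slc2a8 Zmynd10 (0.983) and Dnaic2 (0.977), both needed for motile cilia, and Pomt1 (0.964). Slc16a7 was nearest to Ccdc182 (0.969), 4930404N11Rik (0.960) and Dnajb13 (0.953). For Slc2a1 they were Mfsd4a (0.972), Ehd4 (0.971) and Elk4 (0.953), and for Slc16a1 Nmt2 (0.938), Adk (0.918) and Timm29 (0.914). Bsg was nearest to Sox17 (0.846), a transcription factor of endothelium, Pkig (0.832) and Gm13889 (0.826), and Slc16a3 to Sh3d19 (0.863) and 9630014M24Rik (0.790). The 10 points share their library, so these values only describe a course.

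The rest of the glucose and lactate route was measured through 7 gene lists, counted by the same 2-fold rule with at least 50 counts. Of all genes, 8.37% were higher and 3.10% lower in the high-fat library in Sertoli cells under 8000 UMIs, 11.0% higher and 5.72% lower in spermatocytes, and 10.5% higher and 7.99% lower in spermatids. The median log2 ratio over all genes was -0.04, 0.12 and 0.05 in these 3 groups. Of the 9 germ cell isoforms of glycolytic enzymes, 0 passed in spermatocytes and 0 in spermatids, and 1 in Sertoli cells under 8000 UMIs. That one was Gapdhs, the sperm form of glyceraldehyde phosphate dehydrogenase, with 372 CPM in the high-fat library and 171 CPM in the library with no diet named. The list's median log2 ratio was 0.39 in Sertoli cells under 8000 UMIs, 0.02 in spermatocytes and 0.06 in spermatids. Of the 13 somatic and shared glycolysis genes with enough counts in spermatocytes 1 was higher (Gapdh, 25.4 and 12.1 CPM), and in Sertoli cells under 8000 UMIs 0 of 13 passed, with medians of 0.09 and -0.07. Hk1, the hexokinase that traps imported glucose, had 399 and 370 CPM in spermatids, and the triose phosphate isomerase Tpi1 had 240 and 140 CPM in spermatocytes.

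Of the 10 lactate and pyruvate genes with enough counts, 0 passed in Sertoli cells under 8000 UMIs and 1 was lower in spermatocytes. That was Ldhd, which acts on D-lactate, with 0.717 CPM in the high-fat library and 1.95 CPM in the library with no diet named. In spermatids it was the 1 lower of 10, at 0.296 and 0.726 CPM. Ldhc, the lactate dehydrogenase of germ cells, was high in both, with 11099 and 12088 CPM in spermatocytes. The medians of the list were 0.06 in Sertoli cells under 8000 UMIs, 0.03 in spermatocytes and -0.11 in spermatids. Ldhb, the heart-type lactate dehydrogenase subunit, is named here after its values were seen: it had 963 and 971 CPM in Sertoli cells under 8000 UMIs, against 20.0 and 10.8 CPM over all kept cells.

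Among 12 other sugar transporters, 4 had enough counts in spermatocytes. Slc2a4, the insulin-responsive glucose transporter, was higher (0.483 CPM in the high-fat library and 0.209 CPM in the library with no diet named), and Slc5a9, a sodium-coupled sugar transporter, was lower (1.80 and 6.73 CPM). In spermatids 1 of 3 passed: Slc2a10 had 1 count in the high-fat library (0.0129 CPM) and 314 counts in the library with no diet named (3.74 CPM), a ratio of 0.00344 [8.69e-05 to 0.0193]. None of the 12 had enough counts in Sertoli cells, where Slc2a12 was the highest at 4.95 and 4.25 CPM under 8000 UMIs.

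Among 15 other monocarboxylate transporters and partners, Emb, which encodes embigin, a partner of MCTs related to basigin, was lower in the high-fat library in both germ cell groups. It had 19.4 CPM in the high-fat library and 41.2 CPM in the library with no diet named in spermatocytes (1490 and 2947 counts), and 15.0 and 32.1 CPM in spermatids (1168 and 2698 counts). Slc16a9 was higher, at 2.52 and 0.628 CPM in spermatocytes and 1.56 and 0.333 CPM in spermatids, and Slc16a6 was higher in spermatids at 10.8 and 4.53 CPM. Thus 1 of 9 was higher and 1 lower in spermatocytes, and 2 of 7 were higher and 1 lower in spermatids, with median log2 ratios of 0.14 and 0.17. Nptn, another relative of Bsg, had 55.0 and 48.7 CPM in spermatids.

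Of the polyol and fructose genes, Sord, which turns sorbitol into fructose, was higher in spermatids, at 1059 CPM in the high-fat library and 520 CPM in the library with no diet named, as the 1 of 6 to pass. In spermatocytes it had 1343 and 715 CPM, under 2-fold, and 0 of 6 passed. Akr1b3, which makes the sorbitol, had 609 and 655 CPM in Sertoli cells under 8000 UMIs. Of the genes that regulate transporters, Igf1r, the receptor of insulin-like growth factor, was lower in spermatocytes (2.02 and 7.39 CPM, 1 of 8) and in spermatids (0.862 and 2.27 CPM). Prkaa2, a catalytic subunit of AMP-activated kinase, was also lower in spermatids (0.399 and 1.84 CPM), which makes 2 of 9 there. Tbc1d1, a regulator of transporter traffic, had 49.8 and 52.8 CPM in spermatocytes. In all Sertoli cells, deep ones included, Pgk1 (37.0 and 17.0 CPM), Gapdhs, Aldoart1 and Nptn (51.4 and 24.1 CPM) were higher and Prkaa1 (8.62 and 22.2 CPM) was lower, and of these only Gapdhs passed without the deep cells.

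Other genes overlap some members in the GENCODE M21 annotation, and whether counting used the strand is not given in the sources used here. Slc16a7 is overlapped by 2 genes on the opposite strand and Slc2a1 by 3 genes, 2 of them on the opposite strand. Slc2a3 is overlapped by 1 and Slc16a1 by 2 genes on the same strand. Reads of those pairs could not be told apart here, and no overlap was found for Slc2a5, Slc2a8, Slc16a3 and Bsg.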

How the data were processed

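Single-cell RNA of mouse testis was measured in 2 libraries, 1 per group. The deposited values are whole-number UMI counts per gene and cell barcode, written by PISA 1.0 per the file headers, with no normalisation. Cell Ranger 2.1.1 is named in the submitters' processing notes. The aligner, genome build and annotation were not given in the sources used here. No barcode had fewer than 1000 UMIs, so barcodes were filtered before deposit.

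Totals were 201842085 UMIs in the high-fat library and 207667609 in the other, whose label gives no diet. Cells needed 500 UMIs, 250 genes and at most 20% mitochondrial counts, which removed 3 and 2 barcodes. Scrublet (scanpy 1.11.5, expected rate 6%) called 462 and 517 doublets, which were left out. Counts scaled to 10000 per cell were log transformed, standardised within each library and clustered over 2000 variable genes without the members and listed genes, 50 principal components and 20 neighbours (Leiden, resolution 1, leidenalg 0.10.2, igraph 0.11.9), which gave 25 clusters. A cluster was given the class whose markers had the highest mean log2 CPM, standardised across clusters (markers at 10 CPM or more in some cluster). The score, in standard deviations, had to be at least 0.5 and lead the next class by at least 0.2. A cluster with round and elongating spermatid markers tied was called Cst13-rich spermatids. Clusters stayed unnamed if their top 10 genes held more markers of another class. They also stayed unnamed if their median depth, multiplied by 3, was below their library's and no marker of the class was among their top 10 genes. These naming rules were written with the clusters in view. Late spermatocyte clusters were ordered by falling Sycp3 and round spermatid clusters by rising Prm3. The members and lists were chosen with earlier results of these data known.

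Counts were summed per library and class. Levels carry exact Poisson intervals, ratios exact conditional binomial intervals and shares Clopper-Pearson intervals. A ratio was counted past 2-fold with at least 50 counts over both libraries. All members are named. From each list the genes past 2-fold (at most 4 per direction) and the one with the highest CPM are named, and for each member the 3 genes most alike, of which 1 is not reported here. The ratio step was tested on simulated counts. Alternatives covered naming, clustering, doublets, depth, free RNA, count filter and fold. Leaving out somatic cells of 8000 or more UMIs and clustering without standardising within libraries were chosen after seeing the data. Python 3.11.15, numpy 2.4.6, scipy 1.17.1, pandas 2.3.3, scikit-learn 1.9.0 and matplotlib 3.10.9 were used.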

Additional observations from a re-analysis of the deposited data

Results flagged for a closer look

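For 2 members the ratio of the high-fat library to the library with no diet named ran in opposite directions in different cell classes. The log2 ratio of Slc2a3 was 0.06 in round spermatids and -1.44 in peritubular myoid cells, and its intervals lay above no difference in 2 classes and below it in 7. The log2 ratio of Bsg was 0.50 in endothelial cells and -1.08 in lymphoid cells, with 2 classes above and 4 below. The differences between classes were not tested, since each group is 1 library. With classes from marker counts per cell the log2 ratio was -0.03 for Slc2a3 in myoid cells, 0.11 for Bsg in endothelial cells and -0.05 for Bsg in lymphoid cells. The myoid value rests on 9 and 51 Slc2a3 counts, and 4 of the 37 myoid cells of the library with no diet named had 8000 or more UMIs, against 0 of 25 in the high-fat library.

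An unnamed cluster of 28 cells in the high-fat library and 72 in the library with no diet named, which enters no comparison, held 1879 and 1883 CPM of Slc2a3. That is above the 802 and 782 CPM of late spermatocytes.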

How the results depend on the processing

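Of 808 recomputed values over 92 results, 625 lay within the counting interval of the reported ratio, whatever their sign. A further 181 lay outside it, and 2 changed sign where the reported ratio was at least 2-fold. Counting ratios of any size, 15 of 92 values had the opposite sign with each cell weighted equally. The same held for 12 of 78 with classes from marker counts per cell and 0 of 84 with clustering on all variable genes. No paired analysis was possible because each group is 1 library. The count of members past 2-fold in Sertoli cells, 3 as reported, was 1 with called doublets kept (Slc16a1), 1 with each cell weighted equally (Slc16a7) and 6 with free RNA subtracted, which left 0 CPM of Slc2a3, Slc2a5, Slc2a8 and Bsg in the high-fat library. The Sertoli log2 ratio of Slc16a1, 1.24 as reported, ranged from -0.21 with each cell weighted equally to 3.06 with a minimum of 2000 UMIs. Without somatic cells of 8000 or more UMIs it was -0.05. That of Slc2a8 stayed between -1.71 and -0.84 under the alternatives that left a value in both libraries, and that of Slc16a7 between 0.64 and 5.81, the upper end after free RNA was subtracted. In spermatogonia the count, 0 as reported, was 2 with classes from marker counts per cell (Slc16a1 higher, Slc2a8 lower), 1 with no count filter (Slc16a3) and 1 past 1.5-fold (Slc16a7). In spermatocytes it was 1 with each cell weighted equally and 1 past 1.5-fold (Slc16a1 both times). In spermatids it was 2 with the libraries clustered separately, 2 past 1.5-fold (Slc16a1 higher and Slc2a8 lower both times) and 1 with no count filter (Slc2a1). Over all kept cells it was 2 past 1.5-fold (Slc16a1 higher, Slc2a1 lower). The count of members higher in Sertoli than in germ cells, 3 as reported, was 1 with each cell weighted equally (Slc16a1). The share of all genes was not counted under these alternatives, so these counts of members have no background. The cause of these shifts was not tested. Depth limits Slc2a1 and Slc16a3 most, with 113 and 158 counts in the high-fat library and 174 and 189 in the library with no diet named.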

Other observations

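The unnamed clusters outside the germ cell course hold member levels that belong to no comparison. The largest, with 1258 cells in the high-fat library and 560 in the library with no diet named, had shallow cells (median 1493.5 and 1469.5 UMIs) whose leading genes were those of spermatocytes and spermatids alike. Its levels were 538 and 600 CPM of Slc2a3, 281 and 248 CPM of Slc2a5, 167 and 173 CPM of Slc16a7 and 761 and 754 CPM of Bsg, and no Slc2a1 count was seen in either library. The next, with 448 and 759 cells, had 235 and 236 CPM of Slc16a7 and 12.7 and 11.6 CPM of Slc16a1 (27 and 23 counts). In the cluster of 28 and 72 cells with the highest Slc2a3, the Slc2a3 counts were 291 and 551, and Slc16a7 had 103 and 99.1 CPM.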
